A study of Homo sapiens with 6 samples.

Results

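EGR1, EGR2, EGR3 and EGR4 (early growth response factors) and their corepressors NAB1 and NAB2 are described here in human cells made to express ppk1, which encodes a bacterial polyphosphate kinase. The 6 genes were taken by symbol from a table of 58051 counted genes, and each symbol matched 1 row. HEK293T cells, derived from human embryonic kidney and carrying the SV40 T antigen, were transiently transfected with the empty plasmid pcDNA3.1- (3 libraries) or with pcDNA3.1-ppk1 (3 libraries), and RNA was taken 48 hours later. All 6 cultures received Lipofectamine and were then kept in OptiMEM, a reduced-serum medium; the amount of plasmid per culture is not given. Each library has a letter (B, C or D), and a shared letter marks a matched pair of biological replicates. pcDNA3.1 plasmids drive their insert from a viral (CMV) promoter, and transient transfection leaves a mixture of cells with and without plasmid. The libraries average over that mixture, so fewer cells with a transcript and less of it per cell cannot be told apart. The ppk1 transcript itself is not among the rows and was not analysed here.

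EGR factors are zinc-finger transcription factors that bind GC-rich DNA. Growth factors, serum and stress switch on their genes within minutes, mainly through the ERK kinase cascade, which phosphorylates ELK proteins bound with SRF at CArG boxes. NAB1 and NAB2 have no DNA-binding domain of their own. They bind a repressor domain of EGR1, EGR2 and EGR3, which EGR4 lacks, and recruit the NuRD chromatin-remodelling complex through its subunit CHD4. NAB2 is known as a gene that EGR1 can induce, which makes it a brake on EGR1.

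The promoter windows were searched for a few known control elements close to the starts of these genes. RefSeq windows (GRCh38.p14, 250 bases before to 50 after a transcription start) were found for 5 of the 6 members, EGR1, EGR2, EGR4, NAB1 and NAB2. EGR1 (chr5:138465229-138465478, plus strand) and EGR2 at its start nearest the coding sequence (chr10:62816367-62816616, minus strand) are printed for the 250 bases before the start, because they hold both elements through which ERK and cAMP signals are known to act. Capitals mark the CArG box, the SRF site, and the CRE core (TGACG on either strand), the core bound by CREB and ATF proteins.
EGR1: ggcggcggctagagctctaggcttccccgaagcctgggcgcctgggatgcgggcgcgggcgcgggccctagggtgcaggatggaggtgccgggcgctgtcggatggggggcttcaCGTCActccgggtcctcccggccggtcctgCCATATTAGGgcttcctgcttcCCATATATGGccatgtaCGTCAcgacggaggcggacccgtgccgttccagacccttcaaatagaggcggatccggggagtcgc
EGR2: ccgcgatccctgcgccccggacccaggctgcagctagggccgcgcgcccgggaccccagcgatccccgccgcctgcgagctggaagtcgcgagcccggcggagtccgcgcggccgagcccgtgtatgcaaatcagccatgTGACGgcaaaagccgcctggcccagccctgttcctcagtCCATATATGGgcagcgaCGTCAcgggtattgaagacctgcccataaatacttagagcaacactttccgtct

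The EGR1 window held 2 CArG boxes, which began at positions -105 and -83 from the start. Its 2 CRE cores began at -135 and -66, on the minus strand. In the EGR2 window 1 CArG box began at -71, and the 2 CRE cores began at -110 and -54. Of all 35116 RefSeq windows of the same length, 1.29% held a CArG box, 24.6% a CRE core and 0.273% both. The other 2 EGR2 starts, the EGR4 window and the NAB windows held no CArG box. CArG boxes were searched only as an exact pattern of CC, then A or T bases, then GG. Other forms, and sites further upstream than the windows, were not searched. EGR4 had 2 CRE cores, at -177 and -109. A 30-base stretch around each, at chr2:73293709-73293738 and chr2:73293641-73293670 (minus strand), shows them in capitals.
EGR4, -177: gcgacaacaacaaCGTCAcagctcgagctt
EGR4, -109: gtttgggcatttaCGTCAcggcggcagggc

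NAB2 and 2 of the 3 NAB1 starts held the EGR site GCGNGGGCG, searched on both strands, which 9.43% of all windows hold. It overlaps in part with the GC box GGGCGG (45.0% of windows), the site of SP factors, so 1 stretch can match both. NAB2 had 1 EGR site, at -62 (chr12:57089041-57089070 printed, plus strand). The window of the second NAB1 start held 4 EGR sites, of which the one at -175 is printed (chr2:190648897-190648926, plus strand). The overlapping window of its first start held 3 of these same sites, and the window of the third 0. The sites at -230 and -224 from the second NAB1 start overlap each other. The EGR1 window held 1 EGR site, at -198, and that of the second EGR2 start 1, at position 9. The ETS site was searched only as the letters CCGGAA, on both strands. That match, present in 17.2% of all windows, was in none of the members' windows. Other or shorter ETS sequences were not searched, so the windows are not shown to lack ETS sites. Capitals mark the EGR site, and each match describes letters only, not binding.
NAB2, -62: ctgtgcgtcctGCGGGGGCGgaggcgcgga
NAB1, -175: cactcggccgcGCGTGGGCGggagccggag

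**Figure D1:**
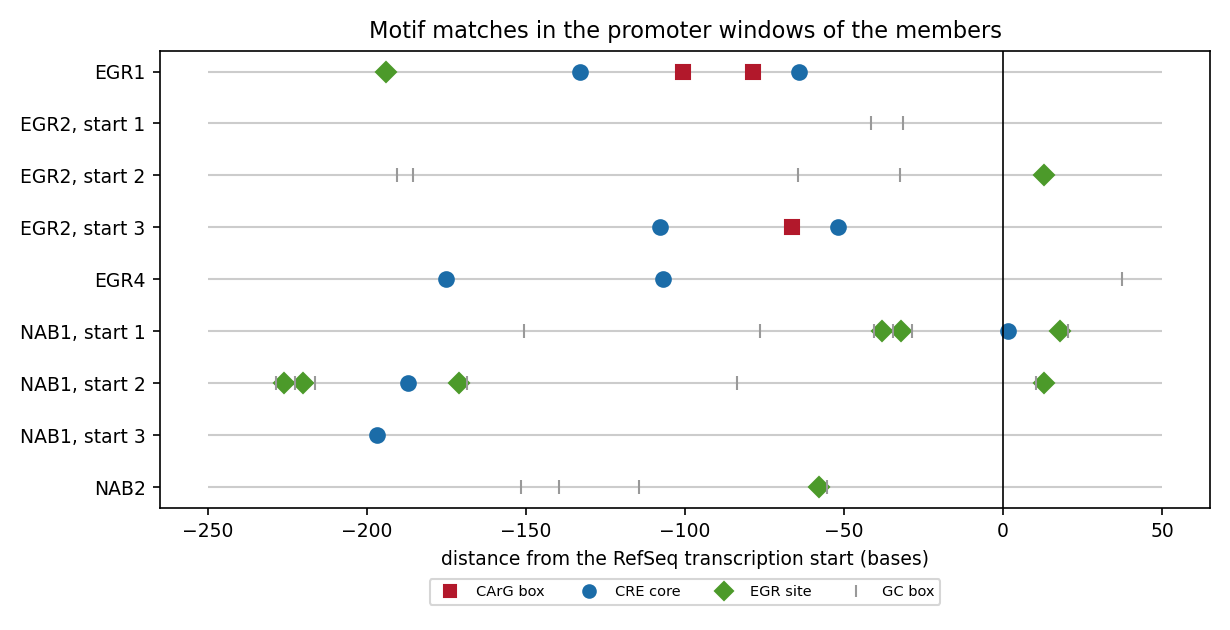
Positions of motif matches in the RefSeq promoter windows of 5 members, in bases from the transcription start (vertical line). Each row is 1 start and each symbol the middle of 1 match. CArG boxes (red squares) appear for EGR1 and for the third start of EGR2. EGR sites (green diamonds) are most numerous in NAB1, where the windows of the first and second start overlap and 3 sites are drawn in both rows.

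With ppk1, EGR1 and EGR3 rose and no member was called lower. In edgeR's quasi-likelihood test with the replicate letter as a block, 2 of the 6 members had an adjusted p below 0.05, and both were higher. Of all 19574 tested genes, 9.08% were called, 4.04% higher and 5.04% lower. The count was 2 in each of the 11 other fits, which changed the block, the scaling, the filter, the tool, the replicates, the depth or the base-composition correction. EGR4 was too low to be tested, so 5 members have a fitted change. In CPM (counts scaled to library size, with TMM factors), all 3 ppk1 libraries lay above all 3 empty vector libraries for EGR1, EGR2 and EGR3, a pattern found in 13.0% of the tested genes.

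EGR1 (ENSG00000120738, chromosome 5) is the best studied member and the one that carried most of the family's reads. Its level was 12.9, 15.1 and 11.2 CPM in empty vector libraries B, C and D, and 30.9, 28.4 and 29.9 CPM in the ppk1 libraries of the same letters. The groups are far apart, and the ppk1 libraries sit closer to one another than the controls do. The fitted rise was 2.29-fold, a log2 fold change of 1.19 (SE 0.09, 95% interval 1.02 to 1.37, adjusted p = 1.4e-14 in edgeR). EGR1 had the 4th smallest adjusted p of the 19574 genes, and its log2 fold change was the 22nd highest. Over the other fits it lay between 1.07 and 1.34. Without the block the adjusted p was 8.9e-05.

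The size of the EGR1 rise differed between pairs by more than counting error. On the log2 scale it was 1.26 in pair B (95% counting interval 1.14 to 1.39), 0.91 in pair C (0.78 to 1.05) and 1.41 in pair D (1.26 to 1.57). Pair C had the smallest rise, and its interval lies apart from those of pairs B and D. It also had the highest control level, but that level divides the ratio, so the link is partly built in. These exact binomial intervals cover counting error only. The fitted 95% interval of 1.02 to 1.37 leaves out the values of pairs C and D. Of its 49.5 degrees of freedom 47.5 are a prior drawn from all genes, so it does not describe the spread of the 3 pairs.

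EGR3 (ENSG00000179388, chromosome 8), a close relative of EGR2 with roles in muscle spindles and in T cells, rose 1.81-fold. Its level was 1.78, 1.85 and 1.49 CPM in the empty vector libraries B, C and D, and 3.58, 2.57 and 3.14 CPM with ppk1. Every ppk1 library was above every control, and pair C again had the smallest step. The log2 fold change was 0.85 (SE 0.16, 95% interval 0.54 to 1.17, adjusted p = 0.00015 in edgeR). It was called in all 11 other fits, with log2 fold changes from 0.75 to 1.04 and an adjusted p of at most 0.022. By pair the log2 ratio was 1.01, 0.47 and 1.07 (B, C and D), with counting intervals that overlap. An antisense transcript covers 3.38% of EGR3's exon bases but had 2 counts over the 6 libraries, against 730 for EGR3.

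EGR2 (ENSG00000122877, chromosome 10), which drives myelination in Schwann cells, was higher in every ppk1 library but did not pass the test. It had 1.44, 1.20 and 1.27 CPM in the controls B, C and D and 1.71, 1.67 and 1.89 CPM with ppk1, from 52 to 114 counts a library. The groups do not overlap, but they are close. The log2 fold change was 0.42 (SE 0.18, 95% interval 0.06 to 0.78), with an unadjusted p of 0.023 and an adjusted p of 0.13 in edgeR. Its counting interval reached below 0 in pairs B (-0.19 to 0.68) and C (-0.04 to 1.01) but not in pair D (0.05 to 1.10). A change of this size was thus near the limit of what a single pair could show at this depth. The adjusted p was between 0.081 and 0.59 in the other fits.

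EGR4 (ENSG00000135625, chromosome 2) was close to the limit of detection. It had 3, 1 and 8 counts in the empty vector libraries B, C and D and 5, 7 and 9 counts with ppk1. That is 0.057, 0.023 and 0.196 CPM, and 0.075, 0.146 and 0.215 CPM, so the groups overlap. Summed over libraries, 12 counts against 21 give a depth-scaled ratio of 1.54 with a counting interval of 0.725 to 3.44, which includes no change. With no filter on low counts, edgeR put EGR4 at 0.71 on the log2 scale (SE 0.65, adjusted p = 0.83).

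NAB1 (ENSG00000138386, chromosome 2), the corepressor found in most tissues, did not pass the test. It had 51.1, 54.6 and 50.7 CPM in the controls B, C and D and 55.8, 52.4 and 54.3 CPM with ppk1. The groups overlap, and library C was the highest control but the lowest ppk1 library. The log2 fold change was 0.06 (SE 0.08, adjusted p = 0.71 in edgeR), and its 95% interval, -0.10 to 0.21, holds no rise of the size seen for EGR1 or EGR3. By pair the log2 ratio was 0.13 in B (counting interval 0.06 to 0.20), -0.06 in C (-0.14 to 0.02) and 0.10 in D (0.01 to 0.19). An antisense transcript covers 3.81% of NAB1's exon bases and had 54 counts in all, against 15697.

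NAB2 (ENSG00000166886, chromosome 12), the corepressor that EGR1 is known to induce, had 27.01, 23.2 and 21.4 CPM in the controls and 24.3, 21.4 and 25.4 CPM with ppk1, in the order B, C and D. The groups overlap throughout. Its log2 fold change was -0.01 (SE 0.08, adjusted p = 0.96 in edgeR), with a 95% interval of -0.18 to 0.16, far below the EGR1 change. The pairs went different ways, with log2 ratios of -0.15 in B (counting interval -0.25 to -0.05), -0.11 in C (-0.24 to 0.01) and 0.25 in D (0.12 to 0.38). The spread between pairs is thus larger than counting error, and the value of pair D lies above the fitted interval. NAB2 shares 69 exon bases (2.29%) with STAT6 on the opposite strand, and whether the counting used the strand is not given in the sources used here.

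**Figure D2:**
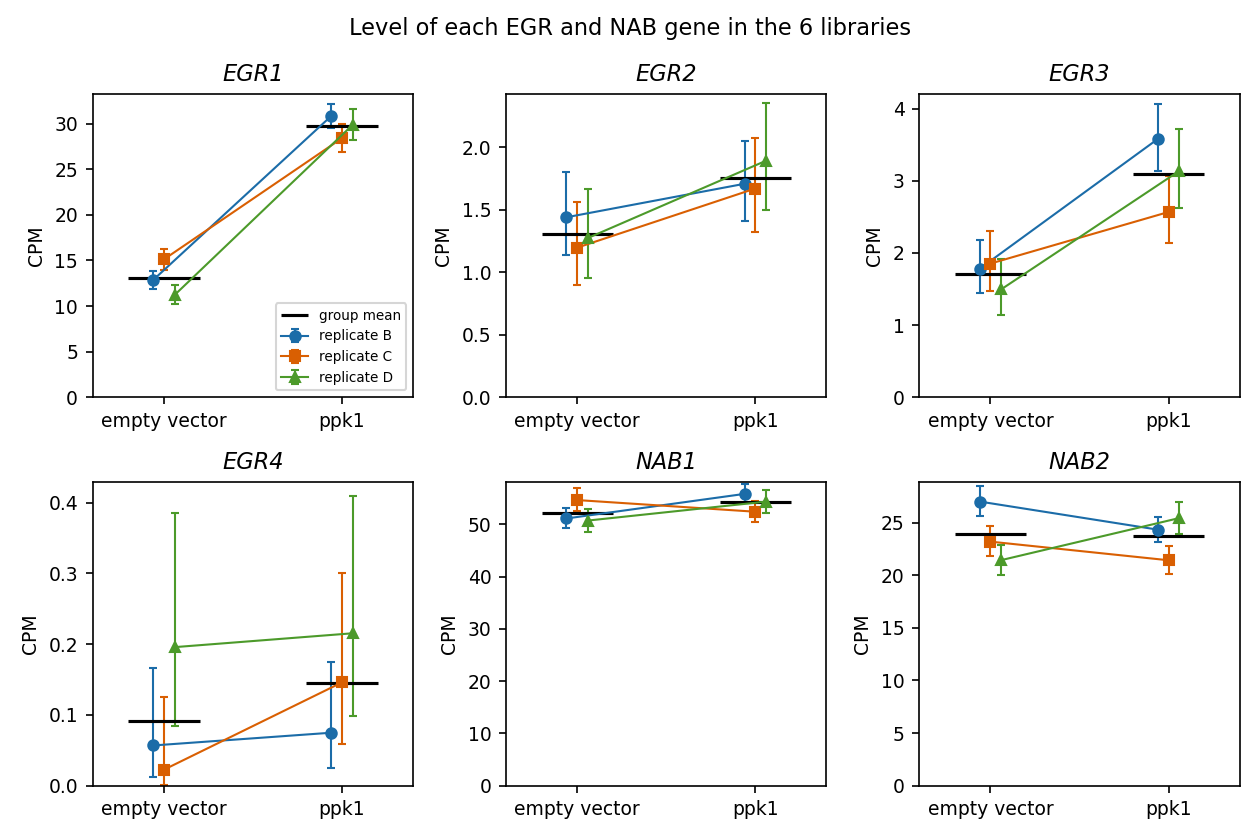
CPM of each member in the 6 libraries, with lines joining libraries of one letter, bars for the 95% Poisson counting interval and black lines for group means (3 libraries each); every y axis starts at 0. The ppk1 points of EGR1, EGR2 and EGR3 lie above all controls, while those of EGR4, NAB1 and NAB2 overlap them.

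**Figure D3:**
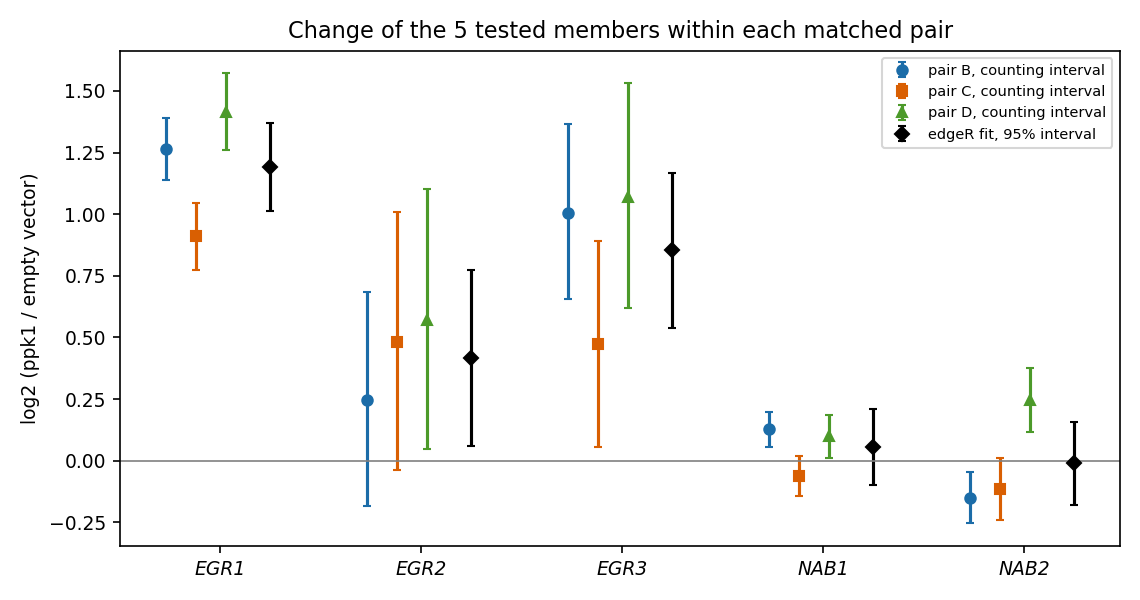
Log2 ratio of ppk1 to empty vector within pairs B, C and D for the 5 tested members, with 95% counting intervals, beside the edgeR estimate with its 95% interval (black). EGR1, EGR2 and EGR3 lie above 0 in every pair, though EGR2's counting intervals reach below 0 in pairs B and C. NAB1 and NAB2 each have pairs on both sides of 0.

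To compare levels between members, CPM were divided by the kb of annotated exon. In the empty vector libraries NAB1 was highest with 10.7 ± 0.44 CPM per kb (mean ± SD, n = 3), before NAB2 with 7.94 ± 0.94 and EGR1 with 4.16 ± 0.63. EGR2 (0.353 ± 0.034) and EGR3 (0.352 ± 0.039) did not differ beyond their spread, and EGR4 was lowest at 0.039 ± 0.039. With ppk1, EGR1 reached 9.47 ± 0.39 CPM per kb and stood above NAB2, at 7.89 ± 0.69, without overlap between libraries (lowest EGR1 library 9.06, highest NAB2 library 8.45). NAB1 was again the highest at 11.1 ± 0.35 CPM per kb. EGR3, at 0.637 ± 0.105, was above EGR2, at 0.476 ± 0.032, in each ppk1 library.

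**Figure D4:**
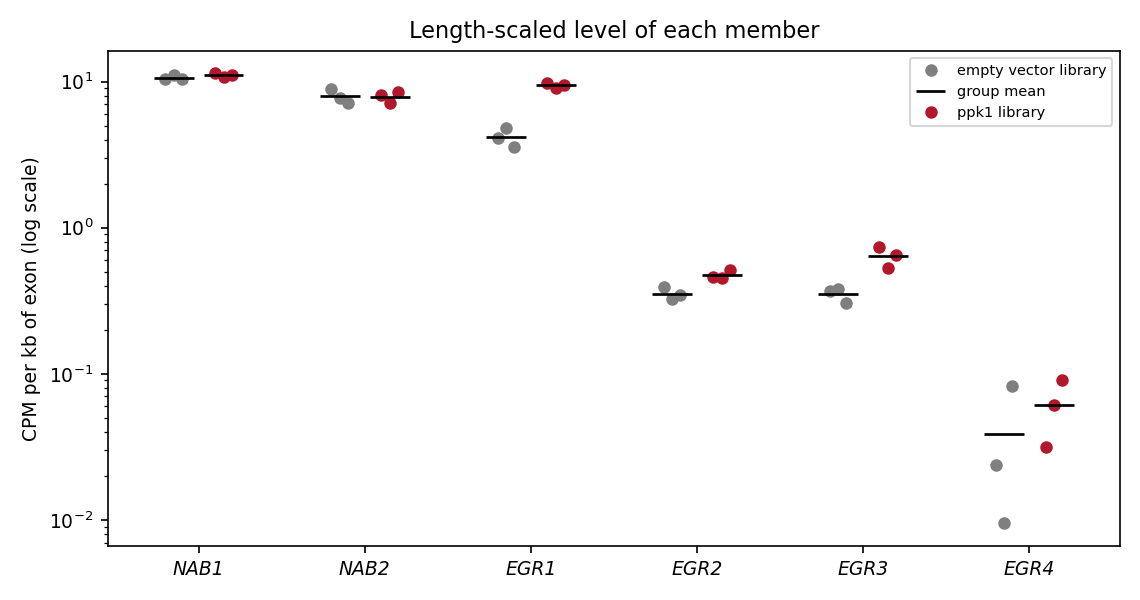
Level of each member in CPM per kb of exon, on a log scale, for the empty vector (grey) and ppk1 (red) libraries, with group means as black lines. EGR1 lies below both NAB genes in the controls and between them with ppk1.

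Within a library, the count of a factor against its corepressor needs no scaling between libraries. The log2 ratio of EGR1 to NAB2 counts was -1.07, -0.62 and -0.94 in the controls B, C and D, and 0.34, 0.41 and 0.23 with ppk1. It was higher with ppk1 in all 3 pairs, with a mean difference of 1.20 ± 0.20 (SD, n = 3 pairs). Flipping the signs of the 3 pairs in an exact test (two-sided) gave p = 0.25, and 3 pairs allow no smaller value. Against NAB1 the EGR1 ratio differed by 1.14 ± 0.17 (exact p = 0.25). The ratio of NAB1 to NAB2 differed by 0.06 ± 0.21 (exact p = 0.75), less than the spread between pairs. Gene length affects these ratios equally in both groups, so only their differences are read.

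EGR1 made up 80.6 ± 2.17% of the counts of the 4 EGR genes in the controls and 85.6 ± 0.87% with ppk1 (mean ± SD, n = 3). The share was higher in all 3 pairs, by 5.51, 3.52 and 5.98 percentage points (exact sign-flip p = 0.25). EGR2's share was lower in every pair, with 8.16 ± 1.37% without and 5.06 ± 0.34% with ppk1, and so was that of EGR3, with 10.6 ± 0.43% and 8.88 ± 1.03% (exact p = 0.25 for both). The 4 genes together had 16.2 ± 2.01 CPM without and 34.7 ± 1.75 CPM with ppk1, while NAB1 and NAB2 together had 76.0 ± 3.36 and 77.9 ± 3.55 CPM.

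Across the 6 libraries, EGR1 and EGR3 ran most closely together of all member pairs, with a Pearson r of 0.96 on log2 CPM. EGR2 had an r of 0.87 with both. NAB2 had 0.05 with EGR1, and NAB1 0.68. The points share libraries, and the group difference is part of each r. Outside the family, the 5 genes most like EGR1 over these libraries, among 13793 with a mean of at least 50 counts, were PHLDA2 (r = 0.998), LPCAT1 (0.992), TMEM234, ZFYVE27 and VAV1 (0.989 each). These genes were chosen for following EGR1, which differs by group, so their levels are given as a description with no test. PHLDA2, an imprinted gene that restrains placental growth, had 2.35, 2.60 and 2.23 CPM in the controls B, C and D and 3.58, 3.53 and 3.69 CPM with ppk1. Fitted log2 fold changes of the 5 genes ran from 0.09 for TMEM234 to 0.59 for PHLDA2. The 5 genes most like NAB2 were CLVS2 (r = 0.996), SPAG4, MDGA1, CCDC74B and ISG15 (0.980), with fitted log2 fold changes from -0.02 to 0.01, which the choice by likeness to NAB2 largely fixes.

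Of the 12 nearest tested neighbours of the members on their chromosomes, 1 was called (9.08% of all tested genes were). EGR1's neighbours REEP2 (log2 fold change 0.01, SE 0.08) and ETF1 (0.12, SE 0.07) and EGR3's neighbour BIN3 (0.04, SE 0.09) did not pass, with edgeR adjusted p-values of 0.96, 0.34 and 0.81. The called one was NEMP1, a nuclear envelope gene 0.831 kb from NAB2, which fell from 180, 193 and 204 to 166, 149 and 154 CPM in pairs B, C and D (log2 fold change -0.30, SE 0.07, edgeR adjusted p = 0.0062).

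Upstream of the EGR genes, SRF and ELK1 rose and ELK4 fell, while no ERK cascade gene was called. Of 8 SRF, ELK and CREB family regulators, 2 were called higher and 1 lower (37.5% against 9.08% of all genes), with a median log2 fold change of 0.09 against 0.01 for all tested genes. SRF, the factor that binds CArG boxes, rose by 0.38 (SE 0.08, edgeR adjusted p = 0.0010), with 73.5, 69.1 and 55.7 CPM in the controls B, C and D and 79.4, 91.2 and 86.8 CPM with ppk1. ELK1, its ERK-activated partner, rose by 0.28 (SE 0.08), and ELK4, another partner of that family, fell (log2 fold change -0.28, SE 0.08), with edgeR adjusted p-values of 0.013 and 0.014. All 3 calls were lost without the block and without replicate C. Unadjusted p-values were then below 0.05 for 3 genes and 1 gene.

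Among the 23 ERK cascade genes, from receptors to RSK and MSK kinases, edgeR and DESeq2 each called 0. With edgeR, 2 had an unadjusted p below 0.05. These were RPS6KA4, an MSK kinase (log2 fold change 0.25, SE 0.08, adjusted p = 0.051), and EGFR, the epidermal growth factor receptor (-0.20, SE 0.08, adjusted p = 0.0996). The 23 genes had a median of 0.06 on the log2 fold change scale. Without replicate B, 2 were called higher and 1 lower, and with GC and length offsets 2 were called higher. Transcript levels do not report the phosphorylation of these kinases.

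Of 28 other immediate early genes and ERK feedback genes, 11 were called (39.3%, against 9.08% of all genes), 10 higher and 1 lower, with a median log2 fold change of 0.14. Earlier results of these data were known when the list was drawn up, so it is not independent evidence of a direction. The gene called lower was ATF3, a stress-induced CREB family factor (-0.31, edgeR adjusted p = 0.0038). ETV5, an ETS factor, rose by 1.11 (SE 0.13), FOSB, an AP-1 subunit, by 0.70 (SE 0.11), ETV4, an ETS factor, by 0.71 (SE 0.13) and ARC, a synaptic protein known as an EGR target, by 0.63 (SE 0.13, edgeR adjusted p at most 0.00053). ARC had 4.75, 4.72 and 3.23 CPM in the controls B, C and D and 7.47, 5.30 and 6.99 CPM with ppk1, so its smallest step was in pair C, as for EGR1 and EGR3. Without the block ARC was not called (edgeR adjusted p = 0.063), while ETV5, FOSB and ETV4 were. Calls among the 28 fell to 4 higher without the block, 5 higher and 1 lower with DESeq2, and 5 or 6 higher in the fits without replicate B, C or D. ETV5 overlaps DGKG on its strand (2.83% of exon bases) and ETV4 overlaps the far more counted DHX8 on the other (1.89%).

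On the corepressor side, 2 of 15 NuRD genes were called, both higher. That is 13.3%, near the 9.08% of all tested genes, so the count is no result about the complex; the median log2 fold change was 0.09. CDK2AP1 rose by 0.24 (SE 0.08) and MBD3, the methyl-binding-domain subunit, by 0.24 (SE 0.08), with edgeR adjusted p-values of 0.042 and 0.045. CDK2AP1 shares 16.5% and MBD3 9.78% of their exon bases with a little-counted gene on the same strand. Neither was called without the block, without replicate C, with RLE or upper-quartile scaling, with the stricter filter or with DESeq2, where 0 to 5 genes had an unadjusted p below 0.05. CHD4, the subunit that NAB proteins bind, had 0.09 on that scale (edgeR adjusted p = 0.49). Of 9 EGR coactivators and modifying enzymes 1 was called (11.1%, again near the 9.08% of all tested genes). It was HCFC1, a coactivator that EGR2 binds, with a rise of 0.33 (SE 0.08, edgeR adjusted p = 0.0030). It was not called without the block or without replicate C (adjusted p = 0.13 and 0.34). CSNK2B, the regulatory subunit of casein kinase 2, did not pass (0.17 on the log2 scale, SE 0.08, edgeR adjusted p = 0.15), and its exon bases overlap AL662899.2 (23.0%) and LY6G5B (6.03%) on the same strand and GPANK1 (11.7%) on the other.

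WT1 and the SP factors bind sites that resemble or overlap EGR sites. Of these 5 genes edgeR and DESeq2 each called 0, and 3 had an unadjusted p below 0.05 in edgeR. For SP1 and SP3 the fitted change was -0.17 on the log2 scale (SE 0.07 and 0.08, edgeR adjusted p = 0.14 and 0.17). WT1 went the other way, with 0.26 (SE 0.12, edgeR adjusted p = 0.18).

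Genes reported elsewhere as EGR1 targets went both ways. Of 21 such genes 18 could be tested, and 2 were called higher and 2 lower (22.2%, against 9.08% of all tested genes, 4.04% higher and 5.04% lower). Their median log2 fold change was 0.15, against 0.01 for all tested genes. FN1, which encodes fibronectin, fell from 72.6, 66.6 and 67.5 to 57.7, 49.6 and 50.5 CPM in pairs B, C and D (log2 fold change -0.39, SE 0.08, edgeR adjusted p = 0.00028). SYN1, a synaptic vesicle gene, fell from 2.82, 2.93 and 2.74 to 1.71, 2.05 and 1.46 CPM (log2 fold change -0.71, SE 0.16, edgeR adjusted p = 0.0015). TGFB1, the growth factor gene, rose by 0.27 (SE 0.08, edgeR adjusted p = 0.018), and its controls at 30.8 to 35.2 CPM lay below the ppk1 libraries at 39.3 to 40.7 CPM. THBS1, which encodes thrombospondin 1, rose by 1.49 (SE 0.48, edgeR adjusted p = 0.040) on 51 counts in all 6 libraries.

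The target calls depended on the fit. Without the block 0 were higher and 2 lower, with DESeq2 0 and 1, and without replicate C 0 and 1, while 6, 2 and 2 were higher at an unadjusted p below 0.05. TGFB1 and THBS1 each overlap a gene of the other strand (6.64% of exon bases by HNRNPUL1 for TGFB1, 4.89% by FSIP1 for THBS1) that has more counts. So does SYN1 (0.602% by ARAF, with 17276 counts against 664). SYN1 also shares 7.77% of its exon bases with AL009172.2 on its own strand, which is not among the rows. Of 7 genes known as EGR2 or EGR3 targets, 5 could be tested, and edgeR and DESeq2 each called 0, with 0 at an unadjusted p below 0.05 in either. NGFR, the nerve growth factor receptor, had -0.25 on the log2 scale (SE 0.15, edgeR adjusted p = 0.32), and MBP, a myelin gene, -0.07 (SE 0.13, edgeR adjusted p = 0.79).

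**Figure D5:**
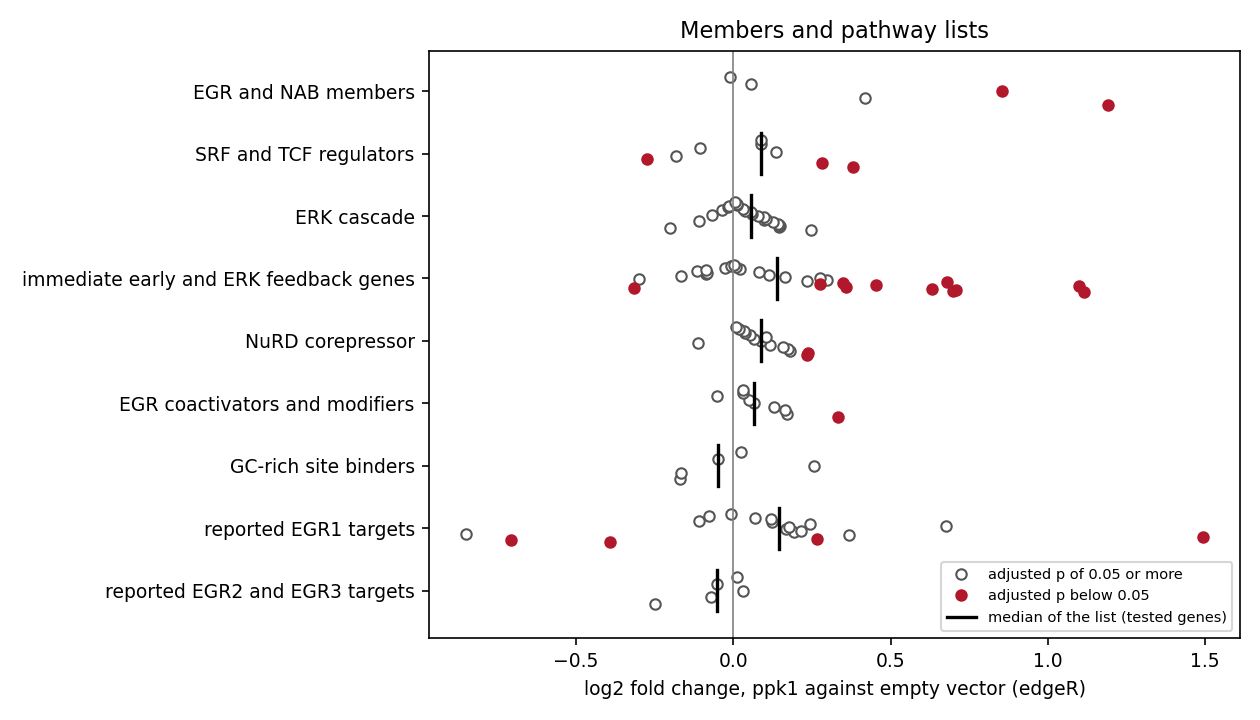
Log2 fold change (ppk1 against empty vector, edgeR) of the 5 tested members and of each tested gene of 8 pathway lists. Red points have an adjusted p below 0.05, open points do not, and black bars are list medians; EGR1 and EGR3 are the red points of the top row.

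The libraries held 40851783 to 67122986 counts, with more in the ppk1 library than in its matched control for all 3 letters. Mitochondrially encoded genes took 3.99 to 4.17% of the counts without and 4.78 to 5.72% with ppk1. The part of this shift in the members' results was not tested. With all libraries thinned to the smallest total count, which leaves the mitochondrial share as it is, EGR1 had a log2 fold change of 1.20 and EGR3 of 0.77, both called by edgeR. HEK293 line markers (7 genes, among them NEFL, VIM and KRT18) were all detected. Their summed levels were 796 to 921 CPM in the controls and 780 to 821 CPM with ppk1. Of these 7 genes 2 were called higher and 1 lower, against 4.04% and 5.04% of all tested genes. Single line markers thus differed between the groups. Of other cell types, 4 endothelial markers summed to at most 0.677 CPM and 6 blood cell markers to at most 2.97 CPM in any library. Only 1 endothelial and 2 blood cell markers were high enough to be tested, and edgeR called 0 of them. The 6 fibroblast markers, mainly COL1A1, summed to 19.9 to 24.8 CPM without and 23.1 to 23.4 CPM with ppk1. Of the 4 that could be tested, 1 was called lower. No marker of these 4 lists was at 0 in all 6 libraries. The block and the scaling set much of the whole-table count: without the block 470 genes were called, and upper-quartile scaling changed the 791 higher and 986 lower calls to 422 and 933.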

How the data were processed

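The authors deposited 1 table of raw read counts per Ensembl gene, with 6 libraries as columns, from poly(A)-selected RNA and a directional kit per the labels' protocols. Per the submitters' processing notes, bcl2fastq 2.20, Trimmomatic, STAR, HTSeq, edgeR, DESeq, Cufflinks and Cuffdiff were used. Their settings, the genome build, the annotation and the strand setting of the counting are not given in the sources used here. All columns were matched by title, and 0 rows named no gene.

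The main test on counts was quasi-likelihood F in edgeR 4.0.16 and R 4.3.3 (filterByExpr, minimum count 10, TMM scaling, Benjamini-Hochberg adjustment over 19574 genes, threshold 0.05), fitted to all 6 libraries. The replicate letter was a block, since the series' design text calls the libraries of a letter matched. Across genes, deviations from the group means of same-letter libraries correlated at 0.109 (B), 0.135 (C) and 0.0476 (D). Libraries of a group differed by more than sampling noise (chi-square per degree of freedom 4.88 to 38.7). Intervals of fold changes use 49.5 degrees of freedom (prior plus residual), and SE is the absolute log2 fold change over the square root of F. The script was tested on simulated data. Log2 CPM used a prior count of 2, and the floor of 3 counts equals 0.0449 to 0.0734 CPM.

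Chromosome, exon length and overlap came from GENCODE 29 by Ensembl identifier (98.96% found). Of the members' transcript sequence, in stretches of 50 bases, only NAB1 shared any (0.601%) with another gene. Promoter sequences are RefSeq's, GRCh38.p14. Other fits used DESeq2 1.42.0, other scalings and filters, no block, or 2 of the 3 pairs. Offsets for GC content and length, and thinning to the smallest library, were chosen after seeing the data. Members and lists were chosen with earlier results of these data known. The text names all members, up to 4 called genes of each list by adjusted p (the 2 with the smallest adjusted p where fewer than 2 were called), and the 5 genes most correlated with EGR1 and with NAB2. The nearest tested gene on each side of a member was also examined. CHD4, ATF3, WT1 and the 4 neighbours named were picked from these sets after their values were seen.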

Additional observations from a re-analysis of the deposited data

How the results depend on the processing

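EGR1 and EGR3 kept direction and call, and EGR2 and NAB1 direction and no call, under all 11 alternatives. The number of members called was 2 in each. NAB2 was uncalled throughout, and its log2 fold change ran from -0.15 (without replicate D) over 0.044 (without C) to 0.063 (without B). Leaving out either B or C thus turned its sign, so the data give it no stable direction. Its adjusted p was 0.74 without B and 0.96 without C. Without the block as a pairing term, EGR1 had 1.19, EGR2 0.42, EGR3 0.86, NAB1 0.06 and NAB2 -0.01 on the log2 scale, and permuting the labels of all 6 libraries gave an exact p of 0.1, the smallest it allows, for the EGR1 share and the EGR1 to NAB2 ratio. Across fits without 1 pair, the share difference ran from 4.51 to 5.74 percentage points and the ratio difference from 1.10 to 1.29. The genes called over the whole table were 1777, against 470 without the block, 755 with DESeq2, 3301 with GC and length offsets (61.0% of them higher, against 44.5%), and 406 to 2435 in the fits without 1 pair (406 without C). The cause was not tested. Of 110 recomputed counts of calls that are above 0 in the reported fit (over the whole table by direction and in the lists), 65 stayed within 1.5 times and 45 did not. Counts that start at 0 say nothing about stability, and 4 of their 88 recomputed values were above 0. Of 88 list medians 85 moved by less than the spread between pairs. Depth limits EGR4, with at most 9 counts a library, and EGR2, with at most 114.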
